A study of Mus musculus with 6 samples.

Results

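A set of 10 cytokine and cytokine receptor genes was followed in Lewis lung carcinoma cells that grew in mice with or without bone marrow-derived mesenchymal stem cells (BMSCs). They are the common gamma chain Il2rg and its partner Il7r, the IL-4 and IL-13 receptor chains Il4ra, Il13ra1 and Il13ra2, the cytokine Il10 with its receptor chains Il10ra and Il10rb, and the cytokine Il15 with its receptor chain Il15ra. These 10 genes, of 18182 in the files, were selected by symbol with earlier results of the same comparison in view, so their differences between the groups are a description and carry no p-value. Lewis lung carcinoma (LLC) is a transplantable mouse lung cancer line, and the sequenced cells carried red fluorescent protein (RFP), by which they were sorted out of the primary tumour by flow cytometry. In 3 libraries the C57BL/6 wild type mice had received LLC-RFP cells alone (LLC alone), and in the other 3 LLC-RFP cells mixed with BMSCs (LLC with BMSCs). All the tumours were subcutaneous, all the sequenced cells come from the one LLC-RFP line, and the labels give no age. The methods name 6-week-old female C57BL/6 mice for allograft tumours, in a passage on luciferase-marked LLC cells. Neither the labels nor the methods say whether each library came from its own mouse, so the spread between libraries may be partly technical.

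Cytokine receptors of this kind have no enzyme of their own. A ligand draws a private chain and a shared chain together, the Janus kinases (JAKs) bound to their tails phosphorylate each other, and STAT proteins then carry the signal to the nucleus. Il2rg encodes the chain shared by the receptors for IL-2, IL-4, IL-7, IL-9, IL-15 and IL-21 and is best known from lymphocytes, where its loss causes severe combined immunodeficiency. Il4ra pairs with Il2rg in the type I IL-4 receptor of blood cells, and with Il13ra1 in the type II receptor for IL-4 and IL-13 of many other cells. Il13ra2 binds IL-13 tightly with a short tail that recruits no JAK, and is known as a decoy. IL-10 signals through Il10ra, found mainly on leukocytes, and the widely expressed Il10rb, while Il15ra holds IL-15 on the cell surface and presents it to neighbouring cells.

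The libraries held 33476347 to 46189113 estimated fragments on genes. A total of 13353 genes passed the filter on low counts and were tested with edgeR's quasi-likelihood test, and a gene was called at a Benjamini-Hochberg adjusted p under 0.05. In LLC alone replicate 3, short transcripts read higher and long ones lower than in the other libraries, with a median log2 deviation of 0.31 among the short ones (the fifth of genes that is shortest) and of -0.37 among the long ones. The trend also split the groups. By replicate, deviations of the short ones were 0.062, 0.037 and 0.31 in LLC alone and -0.19, -0.091 and -0.11 in LLC with BMSCs. Those of the long ones were -0.022, -0.0033 and -0.37 against 0.18, 0.10 and 0.13. Leaving out LLC alone replicate 3 thus does not remove the trend. Without LLC alone replicate 3 the log2 fold changes were 2.18 for Il13ra1, 2.84 for Il13ra2, 3.10 for Il2rg and 1.49 for Il15. They were 2.39 for Il15ra, 0.13 for Il4ra and 0.15 for Il10rb. With the trend over length removed from every library they were 2.14, 2.95, 3.26, 1.73, 2.45, -0.0069 and 0.24 in the same order. Levels are given as FPKM, fragments scaled by transcript length and by library total.

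All 10 genes were in the files and passed the filter. The test called 8 of them higher in LLC with BMSCs and 0 lower (0 also at an unadjusted p under 0.05 and with DESeq2), where 31.5% of all tested genes were called higher and 31.3% lower. By FPKM, all 10 had each LLC with BMSCs library above each LLC alone library, as did 37.0% of the tested genes. Nothing is read from these counts, since the genes were chosen by this contrast. Il10, Il10ra and Il7r passed the filter only through the LLC with BMSCs libraries and therefore had to differ.

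**Figure D1:**
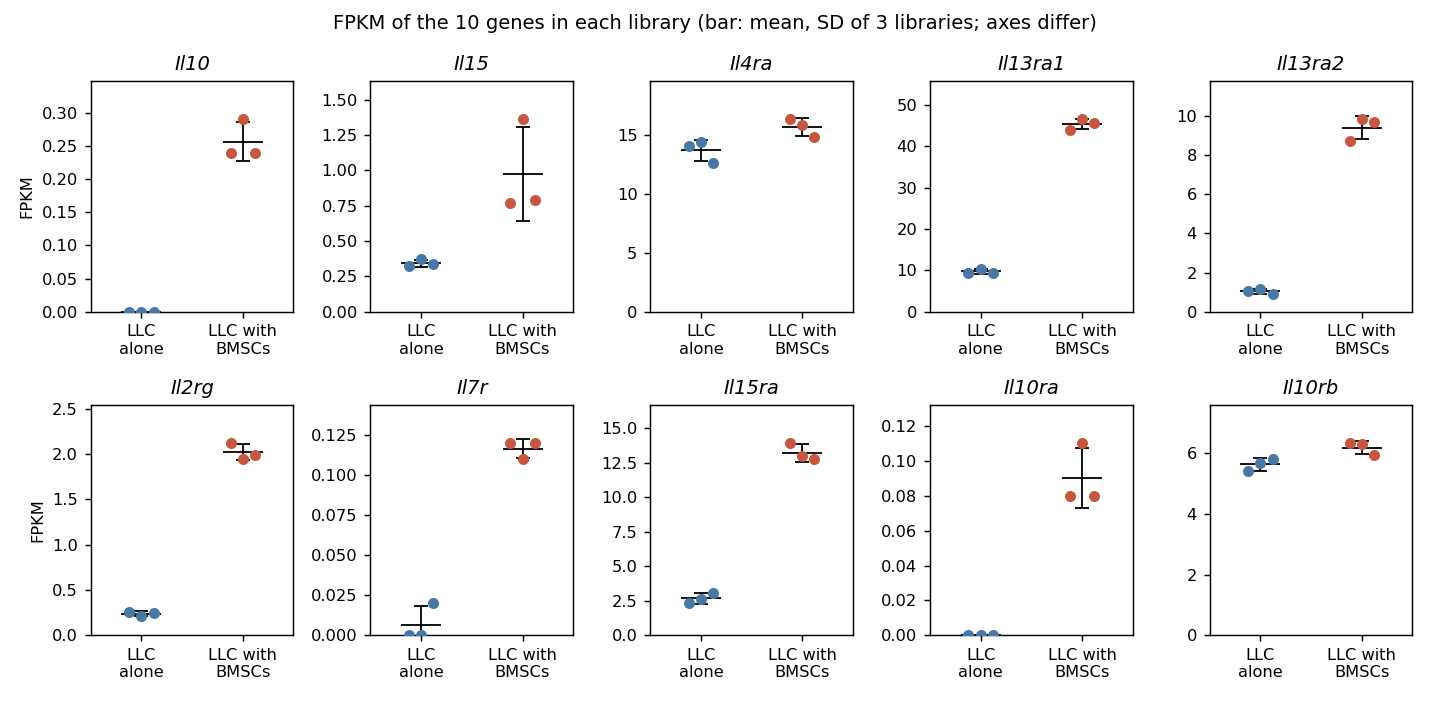
FPKM of each gene in each of the 6 libraries (points), with the mean and SD of 3 libraries per group (bars). The vertical axes start at 0 and differ between panels. The points of the 2 groups are apart in every panel, narrowly for Il4ra and Il10rb and widely for the other genes.

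Among the chains that bind IL-4 and IL-13, Il13ra1 was the most abundant of the 10 genes in LLC with BMSCs. It had 9.43, 10.41 and 9.37 FPKM in the libraries of LLC alone, and 44.05, 46.53 and 45.78 FPKM in those of LLC with BMSCs (values are given in the order of the replicate numbers throughout). Every co-injection library was thus more than 4-fold above every library of LLC alone, and the libraries of a group lay close together. The means were 9.74 ± 0.584 and 45.5 ± 1.27 FPKM (SD, n = 3), a log2 fold change of 2.20 with a standard error of 0.065. Among all tested genes, the mean FPKM of Il13ra1 moved from percentile 52.6 to percentile 86.2. Il4ra, the chain that Il13ra1 joins in the type II receptor, had FPKM values of 14.01, 14.36 and 12.62 in LLC alone and 16.28, 15.82 and 14.83 in LLC with BMSCs. The groups were apart by less than 1 FPKM, LLC alone replicate 3 was the lowest and LLC with BMSCs replicate 1 the highest. The log2 fold change of Il4ra was 0.18 with a standard error of 0.071, which did not pass the threshold. With the trend over length removed the value was -0.0069, so that no direction holds for Il4ra.

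The decoy chain Il13ra2 had 1.05, 1.17 and 0.91 FPKM in LLC alone and 8.72, 9.81 and 9.67 FPKM in LLC with BMSCs. All 3 co-injection libraries were at least 7-fold above the highest library of LLC alone. Its means were 1.04 ± 0.130 and 9.40 ± 0.593 FPKM (SD, n = 3), and its log2 fold change was 2.93 with a standard error of 0.11. The estimated counts of Il13ra2 were not whole numbers in any of the 6 libraries, and no gene was found whose counts add up with them to whole numbers. The level of Il13ra2 is uncertain by any fragments that it shares with another sequence.

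Because both IL-13 chains are given per length, their proportions can be compared between libraries. In FPKM, Il13ra1 was 0.673 to 0.742 of Il4ra in LLC alone and 2.71 to 3.09 of it in LLC with BMSCs, so the order of these chains was the opposite in the 2 groups. Il13ra2 was 0.0971 to 0.112 of Il13ra1 in LLC alone and 0.198 to 0.211 in LLC with BMSCs. The decoy remained below the signalling chain in all 6 libraries. Il2rg, the partner of Il4ra in the type I receptor, was 0.0146 to 0.0198 of Il4ra in LLC alone and 0.123 to 0.134 in LLC with BMSCs. These ratios use the values by which the genes were chosen and are a description.

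Il13ra1 and Il13ra2 both lie on the X chromosome and carry unlike sequence before their RefSeq start sites. The bases before the starts of these genes and of Il2rg, which also lies on the X chromosome, are shown as a description. They are given 5′ to 3′ on the strand of the gene, in lower case throughout because no motif searched was found in them, and come from RefSeq's promoter windows on GRCm38.p6. That is the build of the sequence table, whereas the build named in the submitters' processing notes is mm8.
Il13ra1, plus strand, chrX:36111858-36112107: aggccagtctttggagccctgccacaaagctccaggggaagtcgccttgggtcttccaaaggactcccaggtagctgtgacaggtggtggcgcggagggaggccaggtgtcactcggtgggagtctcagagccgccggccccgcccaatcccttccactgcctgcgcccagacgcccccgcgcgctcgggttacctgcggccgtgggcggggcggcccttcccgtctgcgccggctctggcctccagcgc
Il13ra2, minus strand, chrX:147429193-147429442: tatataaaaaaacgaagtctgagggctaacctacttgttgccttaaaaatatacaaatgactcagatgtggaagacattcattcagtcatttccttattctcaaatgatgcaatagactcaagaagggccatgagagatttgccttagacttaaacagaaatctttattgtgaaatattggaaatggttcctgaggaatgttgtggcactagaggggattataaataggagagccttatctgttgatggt
Il2rg, minus strand, chrX:101268256-101268505: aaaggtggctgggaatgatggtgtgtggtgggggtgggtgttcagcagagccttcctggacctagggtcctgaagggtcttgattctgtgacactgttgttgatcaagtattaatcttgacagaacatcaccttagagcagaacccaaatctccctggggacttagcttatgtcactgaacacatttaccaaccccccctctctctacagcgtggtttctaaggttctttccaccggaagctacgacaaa
The Il13ra1 stretch had 70.8% G and C and 21 CG pairs in 250 bases, that of Il13ra2 36.0% and 1 CG pair, and that of Il2rg 49.2% and 3 CG pairs.

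Motifs were sought on both strands of the RefSeq windows of 300 bases, from 250 before to 50 after each start, which were present for 6 of the 10 genes (7 windows). The motifs were TTC and GAA with 3 bases between, the classical STAT site, TTC and GAA with 4 bases between, the spacing known for STAT6, and GAAA and GAAA with 2 bases between, the core of interferon-response elements. The 3 patterns can overlap. Of all 32851 windows, 8.30%, 6.95% and 3.44% held them, respectively. Il7r had the only match among the windows of these genes, the STAT site TTCAGGGAA at position -142 from its start. The windows of Il13ra1, Il13ra2, Il15ra, Il2rg and Il4ra had none. A match describes the letters only, and the missing ones concern these exact letters in this window alone. Inexact matches were not searched for. The Il15ra window at the downstream start holds gaaagcgaat just after the RefSeq start, seen afterwards, which differs from the interferon pattern in its last base. Il10, Il10ra, Il10rb and Il15 had no entry.

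Il2rg itself was low in LLC alone, with 0.26, 0.21 and 0.25 FPKM, and reached 2.12, 1.95 and 1.99 FPKM in LLC with BMSCs. The counts behind these values were 18, 11 and 17 fragments against 148, 134 and 138. The groups were far apart, at means of 0.24 ± 0.026 and 2.02 ± 0.089 FPKM (SD, n = 3), and the log2 fold change was 3.09 with a standard error of 0.15. Its order against Il13ra2 (2.93, standard error 0.11) is not fixed, since the ratio of mean FPKM was 8.42 for Il2rg and 9.01 for Il13ra2. Il7r, the private chain of the IL-7 receptor, had 0, 0 and 3 fragments in LLC alone and 17, 16 and 16 in LLC with BMSCs, or 0.11 to 0.12 FPKM. Pooled by group and scaled to library size, this was a ratio of 15.5, with an exact 95% interval of 5.01 to 77.8 that covers counting error only. Il7r therefore stayed near the limit of detection even where it was higher.

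Transcripts of Il15 and of its receptor chain were both detected in every library of the sorted cells. Il15 had 0.32, 0.37 and 0.34 FPKM in LLC alone and 0.77, 1.36 and 0.79 in LLC with BMSCs. The second co-injection library was well above the other two, with 73 fragments against 42 in each of them, so the spread of Il15 was wide. The means were 0.343 ± 0.025 and 0.973 ± 0.335 FPKM (SD, n = 3), and the log2 fold change was 1.49 with a standard error of 0.28. It lay between 1.17 and 1.63 when each library was left out in turn. Il15ra was more abundant than its ligand in each library, with 2.34, 2.61 and 3.07 FPKM in LLC alone and 13.92, 12.96 and 12.74 in LLC with BMSCs. Each co-injection library exceeded the highest library of LLC alone more than 4-fold. The means of Il15ra were 2.67 ± 0.369 and 13.2 ± 0.627 FPKM (SD, n = 3), and the log2 fold change was 2.27 with a standard error of 0.11. In FPKM, the receptor chain was 7.05 to 9.03 times its ligand in LLC alone and 9.53 to 18.1 times in LLC with BMSCs.

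**Figure D2:**
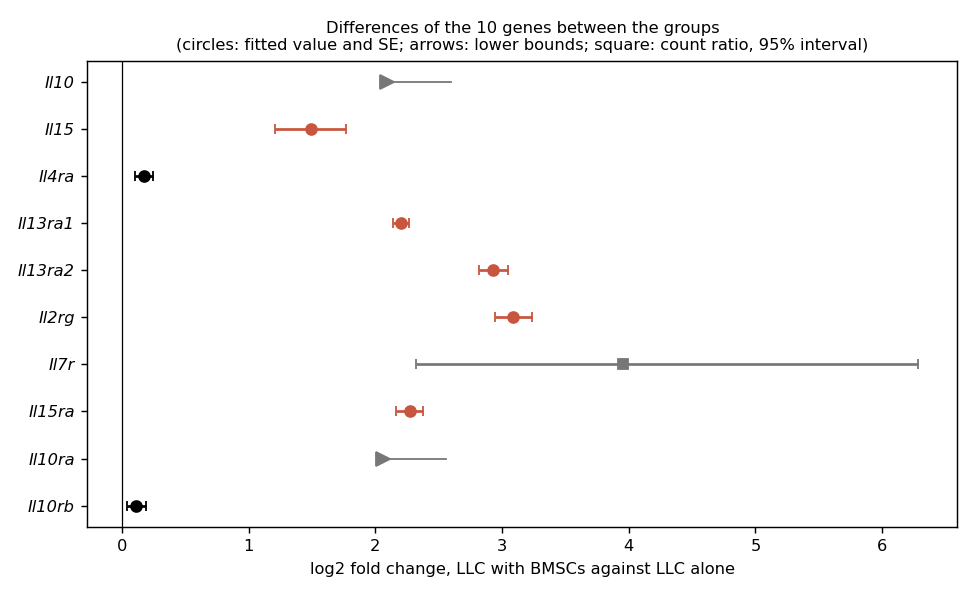
Log2 fold change of each gene, LLC with BMSCs against LLC alone. Circles are fitted values with their standard errors (red past the threshold, black not), arrows are the lower bounds of 4.27-fold for Il10 and 4.17-fold for Il10ra, and the square is the count ratio of Il7r with its 95% interval. Il4ra and Il10rb are the genes next to 0.

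The files also give FPKM for each transcript, and the share of a gene's FPKM that each transcript takes is not the gene level used to choose the genes. Shares could be computed for 16 transcripts of Il13ra2, Il15, Il15ra and Il2rg, the genes with at least 2 listed transcripts and at least 0.1 FPKM in every library. For 5 of the 16, the groups did not overlap, against 28.4% of 18857 transcripts of all genes. With 3 libraries a group, the smallest two-sided p of an exact permutation test is 0.1, which all 5 reached, and none passed after adjustment over the 16 (smallest adjusted exact permutation p = 0.32). Shares within a gene add up to 100%, so its transcripts are not independent. The 5 of 16 are near the share over all genes, so nothing is read from their number. The transcript values that follow are a description.

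Of the 5 shares that did not overlap, 2 were of Il15ra. Transcript NM_133836 took 31.6%, 34.5% and 48.4% of Il15ra in LLC alone and 1.72%, 4.32% and 3.30% in LLC with BMSCs. Transcript NM_008358 took 20.5%, 23.4% and 10.5% in LLC alone and 48.8%, 57.4% and 50.5% in LLC with BMSCs. Its shares in LLC alone rested on 35.2, 32.6 and 23.3 estimated fragments. One was the leading transcript in every library of LLC alone and the other in every library of LLC with BMSCs. In FPKM, NM_008358 went from 0.470 ± 0.145 to 6.89 ± 0.507, while NM_133836 went from 1.04 ± 0.389 to 0.407 ± 0.160 (SD, n = 3), so that the higher level of the gene did not extend to NM_133836. In the GENCODE M21 annotation of GRCm38 these transcripts have the same inner exons and differ in the first exon.

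The 7 listed transcripts of Il15ra fall on these first exons, which lie on chromosome 2. An upstream first exon ends at 11705578 and belongs to 3 transcripts, with starts at 11705290, 11705369 and 11705443. A downstream first exon ends at 11705944 and belongs to 4 transcripts, with starts at 11705777, 11705810 (a pair of them) and 11705811. This grouping was made after the transcript values were seen and is given with no test. Transcripts of the upstream exon summed to 1.17, 1.14 and 1.58 FPKM in LLC alone and 2.37, 2.13 and 2.19 in LLC with BMSCs. Transcripts of the downstream exon summed to 1.17, 1.47 and 1.48 FPKM in LLC alone and 11.55, 10.84 and 10.55 in LLC with BMSCs. Both sums were higher in each co-injection library than in any library of LLC alone, 1.72-fold in the mean for the upstream exon and 8.0-fold for the downstream exon. The upstream share went from 48.4% ± 4.2 to 16.9% ± 0.404 (SD, n = 3). Estimated counts divide fragments among transcripts that share most of their sequence, so that these sums rest on the fragments that reach the first exons or the other differing exons.

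The sequence before each first exon is shown because the transcripts diverge there. Both stretches lie on the plus strand of GRCm38.p6, are taken from RefSeq's windows and stop short of annotated exons of the gene. The second lies in the first intron of the upstream transcripts, between both first exons. Neither holds a motif searched.
Il15ra, before the upstream first exon, chr2:11705043-11705289: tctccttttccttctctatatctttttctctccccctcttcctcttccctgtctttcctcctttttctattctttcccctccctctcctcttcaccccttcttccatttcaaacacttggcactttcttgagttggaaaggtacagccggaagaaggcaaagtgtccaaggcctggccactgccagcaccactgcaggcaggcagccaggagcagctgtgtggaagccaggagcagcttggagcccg
Il15ra, before the downstream first exon, chr2:11705579-11705711: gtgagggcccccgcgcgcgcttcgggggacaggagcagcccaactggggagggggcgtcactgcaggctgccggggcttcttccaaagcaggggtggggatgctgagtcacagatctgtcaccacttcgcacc
The first had 53.0% G and C with 2 CG pairs in 247 bases, and the second 68.4% with 8 CG pairs in 133 bases. RefSeq places the second start at a base just after the printed stretch, while GENCODE places it further downstream, at the positions given above.

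In Il13ra2, 3 of the 4 listed transcripts had shares that did not overlap between the groups. The transcript assembled by the authors' pipeline as BGI_novel_T009231 took 52.8%, 59.8% and 60.4% of Il13ra2 in LLC alone and 33.6%, 31.7% and 28.9% in LLC with BMSCs. RefSeq transcript NM_001306059 took 0%, 0% and 17.6% in LLC alone, from 0, 0 and 15.25 estimated fragments, and 40.9%, 37.6% and 41.2% in LLC with BMSCs. The former was the leading transcript in each library of LLC alone, and the latter in each library of LLC with BMSCs. Another assembled transcript, BGI_novel_T009232, took 15.2% ± 4.85 in LLC alone and 3.34% ± 1.90 in LLC with BMSCs (SD, n = 3), without overlap. The shares of NM_008356 overlapped, at 21.2% ± 11.1 and 25.4% ± 1.64 (SD, n = 3). In FPKM all 4 transcripts had a higher mean in LLC with BMSCs. For Il15 and Il2rg, all fragments of a library were given to a single transcript in 4 and 2 of the 6 libraries respectively, and no share had groups that did not overlap.

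**Figure D3:**
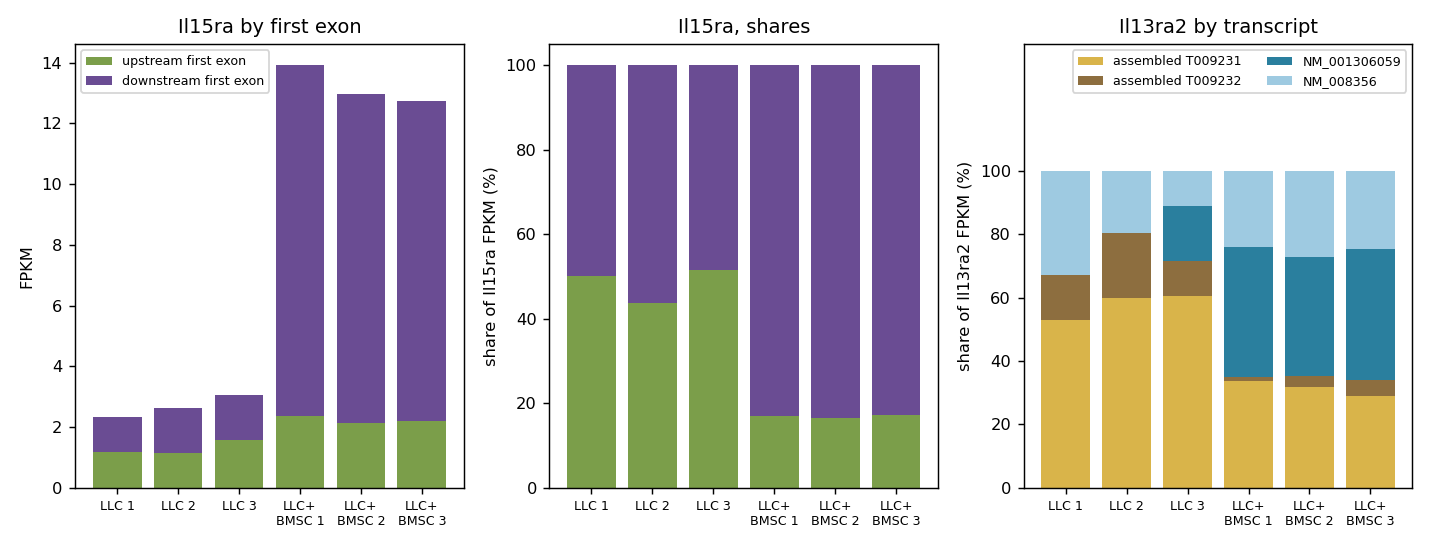
Il15ra FPKM by first exon (left), the same as percent of the gene (middle) and Il13ra2 by transcript as percent of the gene (right), one bar per library. The downstream first exon makes up 48.4% to 56.3% of Il15ra in LLC alone and 82.8% to 83.6% in LLC with BMSCs, and NM_001306059 makes up 37.6% to 41.2% of Il13ra2 in LLC with BMSCs.

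The chains of the IL-10 receptor differed from each other in level. Il10rb, which also serves the receptors for IL-22 and the lambda interferons, had 5.41, 5.69 and 5.82 FPKM in LLC alone and 6.34, 6.30 and 5.94 in LLC with BMSCs. The nearest libraries of the groups, at 5.82 and 5.94 FPKM, were almost level, and the log2 fold change of 0.11 with a standard error of 0.074 did not pass the threshold. With the trend over length removed it was 0.24 and passed. Il10ra, which binds the ligand, was not listed in any library of LLC alone, taken as 0 fragments, and had 13, 16 and 12 fragments in LLC with BMSCs, or 0.08 to 0.11 FPKM. Set against 3 fragments in each LLC alone library, the level that a count of 0 allows, Il10ra was at least 4.17-fold higher. Il10 was likewise not listed in LLC alone and had 13, 16 and 13 fragments in LLC with BMSCs, or 0.24, 0.29 and 0.24 FPKM, which was at least 4.27-fold higher. In LLC with BMSCs, Il10ra was 0.0126 to 0.0175 of Il10rb in FPKM. Both Il10 and Il10ra thus rested on 12 to 16 fragments per library.

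In LLC alone the FPKM order was Il4ra, Il13ra1, Il10rb, Il15ra, Il13ra2, Il15 and Il2rg, each apart from the next in all libraries, followed by Il7r, Il10 and Il10ra, which did not differ beyond their spread. In LLC with BMSCs it was Il13ra1, Il4ra, Il15ra, Il13ra2, Il10rb, Il2rg, Il15 and Il10, each apart from the next, and then Il7r and Il10ra, whose ranges met. A mean of at least 1 FPKM was reached by 5 genes in LLC alone and 6 in LLC with BMSCs, Il2rg being the addition. The genes whose log2 CPM (counts scaled to the library total only) followed Il13ra1 most closely over the 6 libraries were Dcn, Igtp and Irf1 (Pearson's r = 0.9999, 0.9998 and 0.9998). As many as 698 tested genes had an r over 0.99 with Il13ra1, so that the closest ones are not set apart from many others. For Il4ra the closest were Abca7, Mtmr2 and Arhgef10 (r = 0.993, 0.988 and 0.987).

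Markers of other cells also differed between the groups of sorted cells, and the low-level members should be read beside them. The 7 pan-leukocyte markers summed to 1.22 to 1.43 CPM in LLC alone and 14.3 to 14.7 CPM in LLC with BMSCs. All 7 were called higher, against 31.5% of all tested genes. Of these, 3 had at most 3 fragments in every LLC alone library, passed the filter only through LLC with BMSCs and had to differ. Ptprc and Fcer1g, with 3 to 8 fragments per LLC alone library, also passed only through LLC with BMSCs and had to differ. Ptprc, the CD45 gene, had 0.030 ± 0.020 and 0.450 ± 0.040 FPKM (SD, n = 3). Neutrophil markers summed to 0.469 to 0.818 and 22.5 to 26.2 CPM, and all 7 tested of 10 were called higher. Of the 7, 6 were at or under 3 fragments in every LLC alone library and had to differ. In LLC with BMSCs, 22.4 ± 2.90 FPKM of S100a9 and 20.2 ± 2.20 of S100a8 (SD, n = 3) led them. Ly6g stayed at or under 0.11 FPKM in every library. Of 12 macrophage markers, 5 were called higher and 2 lower of the 8 tested, with sums of 28.2 to 31.6 and 39.0 to 40.8 CPM. Adgre1, the F4/80 gene, was at 0 in all LLC alone libraries, so that it had to differ. In LLC with BMSCs it was at 0.477 ± 0.074 FPKM (SD, n = 3). Itgam, with 0, 0 and 5 fragments in LLC alone, also passed only through LLC with BMSCs and had to differ. Csf1r went from 0.110 ± 0.017 to 0.527 ± 0.064 FPKM (SD, n = 3). Cd68, in contrast, went from 5.55 ± 0.509 to 3.03 ± 0.356 FPKM (SD, n = 3; log2 fold change -0.89, edgeR adjusted p = 0.0005), Cx3cr1 was lower too (log2 fold change -1.58, edgeR adjusted p = 0.0006), Cd14 did not pass (log2 fold change 0.065, edgeR adjusted p = 0.587), and C1qa, C1qb and C1qc were at or under 3 fragments in every library. These 6 markers, Itgam and Fcer1g were named after their values were seen. Cx3cr1, at 8 to 9 fragments per library of LLC with BMSCs, passed the filter only through LLC alone and had to differ. Markers of T and NK cells summed to 0.433 to 0.717 and 0.318 to 0.495 CPM, the 1 gene high enough to be tested was not called by edgeR, and Cd3e was at or under 0.02 FPKM in each library. The sum of the B cell markers, 12 to 14.7 and 15.3 to 18.4 CPM, was nearly all Pax5.

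Il2rg, Il7r, Il10 and Il10ra were higher in the same libraries as the pan-leukocyte and neutrophil sums. The macrophage, B cell, dendritic cell, BMSC and fibroblast, endothelial, and epithelial and lung sums were also higher there without overlap. Only the T and NK cell sums overlapped, so most lists shared the direction, but the sizes were unlike. The pan-leukocyte sum was 1.22 to 1.43 CPM in LLC alone and 14.3 to 14.7 CPM in LLC with BMSCs. The neutrophil sum was 0.469 to 0.818 and 22.5 to 26.2 CPM. All the other sums differed by a smaller factor, such as 366 to 431 and 824 to 869 CPM for BMSC and fibroblast markers. The epithelial and lung sum was 157 to 177 and 189 to 198 CPM. In LLC with BMSCs, FPKM relative to Ptprc was 3.98 to 5.17 for Il2rg, 0.224 to 0.293 for Il7r, 0.533 to 0.592 for Il10 and 0.178 to 0.224 for Il10ra, against 95 to 107 for Il13ra1, 20.02 to 21.5 for Il13ra2 and 26.4 to 34.0 for Il15ra. In LLC alone, Il2rg was 4.2 to 26 times Ptprc, a range that rests on few fragments of either gene. In such bulk samples a change in the number of cells of a type and a change in RNA per cell cannot be told apart. The part of other cells in the values of these genes was not tested.

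**Figure D4:**
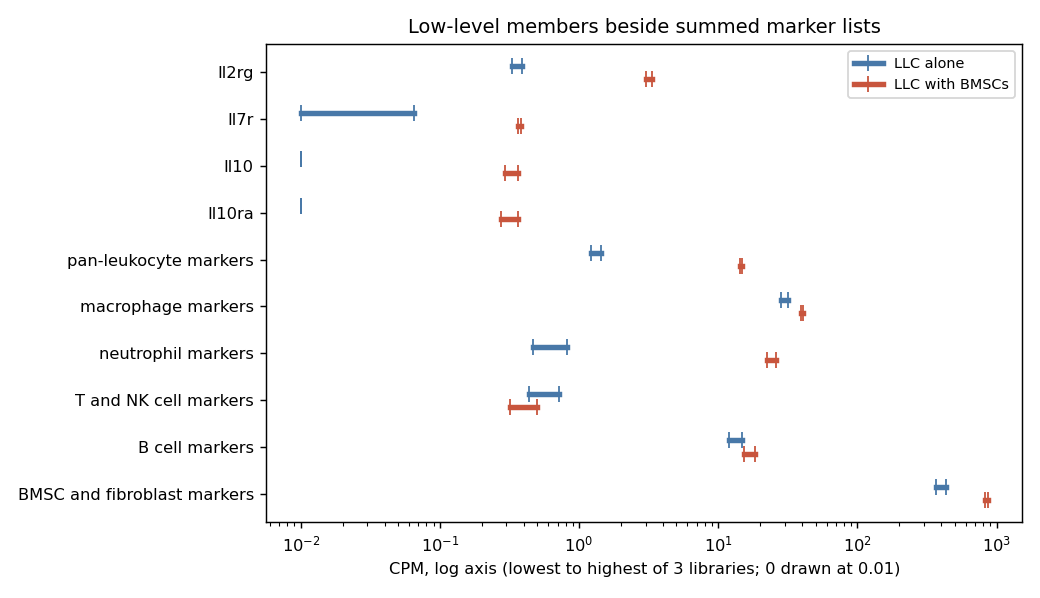
CPM of Il2rg, Il7r, Il10 and Il10ra beside the summed CPM of marker lists, each line running from the lowest to the highest of 3 libraries per group on a log axis, with 0 drawn at 0.01. The 4 genes and all the sums drawn except that of T and NK cells are higher in LLC with BMSCs without overlap. The T and NK cell sums overlap. CPM is not scaled to length, so lines are to be compared between groups and not between genes.

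BMSC and fibroblast markers moved too, with sums of 366 to 431 CPM in LLC alone and 824 to 869 CPM in LLC with BMSCs. All 11 tested of 14 were called higher, against 31.5% of all tested genes. Col1a1, Dcn and Lum had 2 to 8 fragments per LLC alone library. They passed the filter only through LLC with BMSCs and had to differ. Dcn and Lum are named here after their values were seen. Col3a1 went from 41.2 ± 3.82 to 100.03 ± 1.48 FPKM and Col1a1 from 0.0133 ± 0.0058 to 2.0 ± 0.208 FPKM (SD, n = 3). Sums of endothelial markers were 1.04 to 1.28 and 1.38 to 1.75 CPM, the 2 tested were not called by edgeR, with Pecam1 at 0.170 ± 0.030 and 0.187 ± 0.025 FPKM (SD, n = 3). Dendritic cell markers summed to 10.2 to 11 and 13.3 to 13.9 CPM, with 2 of 5 tested called higher and 1 lower. As to the label of lung carcinoma, Krt8 was high at 95.3 ± 5.98 and 110 ± 2.85 FPKM (SD, n = 3), but its usual partner Krt18 was at 0.083 ± 0.050 and 0.653 ± 0.032 FPKM and Epcam at 0.033 ± 0.012 and 0.0067 ± 0.0058 FPKM (SD, n = 3). The epithelial identity thus rested on Krt8 alone among these markers.

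Genes of the same families that were not among the 10 were taken from lists, for which 25 of 35 tested genes were called higher and 6 lower, where 31.5% and 31.3% of all tested genes were. The lists were chosen with earlier results of these data known, and nothing particular to them is read from such counts. The remaining genes of the gamma-chain family were scarce. Of 11, 8 were in the files and 3 were tested, with a median log2 fold change of 0.50 against 0.012 over all tested genes. Il7, the ligand of the Il7r chain, went from 0.327 ± 0.091 to 0.873 ± 0.055 FPKM (SD, n = 3), with a log2 fold change of 1.43 and an adjusted p of 0.0004 by edgeR, and was named after its values were seen. Crlf2, the chain that joins Il7r in the receptor for TSLP, was lower, at 2.58 ± 0.286 and 1.81 ± 0.410 FPKM (SD, n = 3; log2 fold change -0.54, edgeR adjusted p = 0.0310), a call that was lost without LLC alone replicate 2 (edgeR adjusted p = 0.0522), LLC alone replicate 3 (edgeR adjusted p = 0.0676) or LLC with BMSCs replicate 3 (edgeR adjusted p = 0.0774), and with the trend over length removed (edgeR adjusted p = 0.102). Il2rb, which IL-2 and IL-15 use beside Il2rg, was at 0.117 ± 0.040 and 0.167 ± 0.031 FPKM (SD, n = 3) and did not pass (log2 fold change 0.50, edgeR adjusted p = 0.178), and is likewise named after its values were seen. Il2, Il4 and Il9 are not analysed here, and Il13 was at or under 0.02 FPKM in each library.

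Relatives of Il10ra and Il10rb in the class II receptor family included 6 tested genes of 14 (median log2 fold change 0.64). The test called 5 higher and 1 lower, against 31.5% and 31.3% of all tested genes. Ifngr2, the accessory chain of the interferon-gamma receptor, went from 17.6 ± 0.689 to 39.5 ± 1.24 FPKM (SD, n = 3; log2 fold change 1.14, edgeR adjusted p = 4.52e-06). Il20rb, a chain of the receptors for IL-19, IL-20 and IL-24, went from 2.76 ± 0.289 to 4.10 ± 0.227 FPKM (SD, n = 3; log2 fold change 0.93, edgeR adjusted p = 3.26e-05). Its counts were not whole in any of the 6 libraries, and its log2 fold change was 0.58 with the trend over length removed and 0.44 with limma on log2(FPKM + 1). The ligand-binding interferon-gamma chain Ifngr1 and the type I interferon chain Ifnar2 had log2 fold changes of 0.65 and 0.63. F3, tissue factor, which starts blood clotting and has the fold of this family, was lower, at 18.9 ± 0.857 and 12.6 ± 0.430 FPKM (SD, n = 3; log2 fold change -0.60, edgeR adjusted p = 9.62e-05). Of the 14, 8 were not tested or not in the files, and Il10rb was not compared with its relatives by a test.

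Transcripts of the JAK and STAT genes that serve these receptors were all present, and 8 of 9 genes were called higher, against 31.5% of all tested genes (median log2 fold change 0.65). Jak3, the kinase bound to the Il2rg tail, went from 2.95 ± 0.070 to 10.6 ± 0.792 FPKM (SD, n = 3; log2 fold change 1.66, edgeR adjusted p = 1.01e-06). Stat6, the transducer of IL-4 and IL-13, was already abundant at 42.5 ± 1.72 FPKM in LLC alone and had 55.1 ± 1.76 FPKM in LLC with BMSCs (SD, n = 3; log2 fold change 0.36, edgeR adjusted p = 0.0012). Stat3, used by IL-10, had a log2 fold change of 1.22. The kinases Jak2 and Tyk2 had values of 0.70 and 0.65. Jak1, which binds Il4ra and Il10ra, had 0.27 (edgeR adjusted p = 0.0338), and lost its call in 5 of 17 alternatives, among them when any 1 library of LLC with BMSCs was left out (edgeR adjusted p = 0.0735 to 0.0953) and with the trend over length removed (0.079 on the log2 scale, edgeR adjusted p = 0.0962). Stat5a and Stat5b, used by IL-2, IL-7 and IL-15, had 0.25 (edgeR adjusted p = 0.0386) and 0.15 (edgeR adjusted p = 0.0778). The call of Stat5a was lost in 11 of 17 alternatives, among them DESeq2 (DESeq2 adjusted p = 0.114) and each left-out library except LLC alone replicate 2 (edgeR adjusted p = 0.0622 to 0.107), and Stat5b turned to -0.020 with the trend over length removed.

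The genes listed as responding to IL-4 and IL-13 are mostly known from macrophages. Of 18, 8 were tested, 6 called higher and 1 lower, against 31.5% and 31.3% of all tested genes. The median log2 fold change was 2.17, or 2.13 with genes at the floor set to their bound. Chil3, a chitinase-like protein, was at or under 3 fragments in each library of LLC alone and at 1.04 ± 0.163 FPKM (SD, n = 3) in LLC with BMSCs, at least 20.7-fold higher. Tgm2, transglutaminase 2, went from 1.30 ± 0.093 to 3.32 ± 0.216 FPKM (SD, n = 3; log2 fold change 1.34, edgeR adjusted p = 1.59e-05). Klf4 was lower, at 3.58 ± 0.270 and 1.29 ± 0.110 FPKM (SD, n = 3; log2 fold change -1.49, edgeR adjusted p = 1.45e-05). Chil3, Arg1, Ccl22 and Mrc1 (6, 9 and 7 fragments in LLC alone) passed the filter only through LLC with BMSCs and had to differ. The median, also with bounds, includes these genes, so nothing is read from it. Of the other tested genes, Tgm2 and Cish (log2 fold change 0.73, edgeR adjusted p = 0.0151) were called higher and Klf4 lower. Socs1 did not pass (log2 fold change 0.045, edgeR adjusted p = 0.766). Of the called genes, Arg1, Mrc1, Ccl22 and Cish stayed under 1 FPKM in the mean of both groups. These genes and Socs1 are named after their values were seen.

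Of 10 genes known to respond to IL-10 in myeloid cells, 9 were tested (median log2 fold change 1.57). The test called 5 higher and 3 lower, against 31.5% and 31.3% of all tested genes. Of the 5, 1 (Tnip3, named after its values were seen) was at or under 3 fragments in every LLC alone library and had to differ. Il1rn, the IL-1 receptor antagonist, went from 0.367 ± 0.075 to 3.12 ± 0.032 FPKM (SD, n = 3; log2 fold change 3.06, edgeR adjusted p = 2.58e-06). Socs3, a feedback inhibitor of cytokine receptors, went from 7.53 ± 0.461 to 31.5 ± 1.60 FPKM (SD, n = 3; log2 fold change 2.04, edgeR adjusted p = 6.64e-07). Bcl3 and Sbno2, nuclear co-regulators, had log2 fold changes of 2.79 and 1.57. Ddit4, an inhibitor of mTOR signalling, was lower, at 68.5 ± 5.21 and 35.4 ± 1.12 FPKM (SD, n = 3; log2 fold change -0.97, edgeR adjusted p = 2.24e-05). Many of these genes also respond to other cytokines. All marker sums except that of T and NK cells were higher in LLC with BMSCs, as the genes called higher were. The part of other cells in the values of these genes was not tested.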

How the data were processed

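RNA was sequenced from sorted LLC-RFP cells in 3 libraries per group. The values deposited by the authors for genes and transcripts are estimated counts (unnormalized, partly fractional), FPKM (scaled by the authors to transcript length and library total) and a length in bases. Submitters' processing notes name HISAT, StringTie, Cufflinks, GATK and mm8 with no role, and the quantification program and strand setting are not given in the sources used here. Fragments of near-identical or overlapping genes may be divided: in GENCODE M21, Il2rg and Il10rb overlap another annotated gene on the same strand and Il4ra one on the opposite strand, none of them in the files.

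The 10 genes and all lists were chosen with earlier results of these data known. Named genes of the lists were those called with the largest change and at least 1 FPKM in a group, at most 5 a list, with the JAK and STAT genes and defining markers. A few of them are not reported here. A gene missing from a library's file was taken as 0. Estimated counts were rounded and fitted with edgeR 4.0.16 (TMM, default filter on low counts, quasi-likelihood test, Benjamini-Hochberg over 13353 genes) in R 4.3.3. Standard errors are the log2 fold change over the root of the test statistic. Where every LLC alone library was at or under 3 fragments, a bound against 3 per library replaced the fitted value, unless fragments allowed a ratio with a Clopper-Pearson 95% interval (Il7r), and both cover counting error only. Scripts were tested on simulated data. Alternatives were DESeq2 1.42.0, other scalings and filters, limma 3.58.1 on log2(FPKM + 1) and log2(FPKM + 0.1), a replicate block, summing of the closest replicates, removal of the length trend and leaving out each library. At 33476347 to 46189113 fragments per library, 3 fragments are 0.0650 to 0.0896 CPM.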

Additional observations from a re-analysis of the deposited data

How the results depend on the processing

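Of the 10 genes, 8 were called higher in the main fit and 8 or 9 under most of the 17 alternatives. The count was 5 with at least 10 counts required in every library, where 7 genes were tested, and 5 with limma on log2(FPKM + 1) and 5 with limma on log2(FPKM + 0.1), where 6 were tested. It was 8 whichever library was left out. Il4ra passed the threshold without TMM (0.20 on the log2 scale) and in the limma fits with a filter on low FPKM (0.18 and 0.20) but not in limma on log2(FPKM + 1) without the filter (0.18), while with the length trend removed it was -0.0069. Stat5b was -0.020 there, and the cause was not tested. Of the family genes, 23 to 25 were called higher and 4 to 6 lower when a library was left out, and 17 to 28 and 5 to 7 under the other alternatives. The transcripts whose shares did not overlap numbered 5, also with transcripts under 0.05 FPKM left out, and 6 to 7 when a library was left out. Replicate numbers did not pair the libraries, as the deviations of same-numbered libraries correlated at 0.076, -0.11 and 0.057. With the replicate number as a block, 8 of the 10 genes and 24 family genes were called higher and 6 family genes lower. With 3 libraries a group, 12 to 16 fragments of Il10 and Il10ra allow only bounds.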
